A study of Coturnix japonica and Phalacrocorax auritus with 29 samples.

Results

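Cell division genes were followed in embryonic livers of the Japanese quail (JQ) and the double-crested cormorant (DCCO), after chlorpyrifos, an organophosphate insecticide, had been injected into the egg. The members were chosen by name: every protein name that begins with cyclin, cell division cycle, minichromosome maintenance, centromere protein, kinesin family member or aurora kinase and that occurs in the count tables of both species. This gave 187 members of 18869 names shared by the tables. A choice by name also takes in relatives that do not act in division, such as transport kinesins, cyclins of the transcription machinery and cyclin M metal transporters, so the members are described by role. Of the 187 members, 168 had enough reads to be tested in JQ, 165 in DCCO and 172 in a fit of both species, and 15 were tested in neither species alone.

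Each library was made from an individual liver, and all eggs had received either chlorpyrifos or its solvent DMSO in the air cell before incubation. JQ had 5 high dose, 5 medium dose and 5 DMSO control embryos, and DCCO had 5 high dose, 5 medium dose and 4 DMSO control embryos. JQ livers were taken at embryonic day 9, except for control 5, which is labelled day 16, and DCCO livers at day 16. The labels list nominal amounts (0.4, 4.0 and 40 in µg per g of egg) without saying which of them were named medium and high. A high dose was picked for each species so that few embryos died. Species, age and the strength of the dose therefore cannot be told apart in a contrast between JQ and DCCO.

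Cells divide by passing through DNA replication and mitosis under the control of cyclins and the kinases they activate. D and E cyclins with CDK4, CDK6 and CDK2 start replication, the MCM helicase unwinds the DNA, and cyclins A and B with CDK1 start mitosis. In mitosis, CENP proteins build the kinetochore on the centromere, mitotic kinesins and aurora kinases shape the spindle, and CDC20 with the anaphase-promoting complex ends it. The embryonic liver grows by division of hepatocytes and also houses dividing blood cells, so these transcripts come from a mixture of cell types. In such bulk tissue, fewer cells of a type and less RNA per cell cannot be told apart.

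Library totals were 11548222 to 27778954 counts in JQ and 9890108 to 21976904 in DCCO, of which members held 0.417% to 0.602% and 0.359% to 0.638%. Of 13 hepatocyte markers 12 were tested in each species, with mean log2 CPM (counts scaled to library size, prior count 2) of 11.15 to 12.33 in JQ and 11.51 to 12.40 in DCCO libraries. In DCCO, control 1 was the lowest of 14 libraries for 53 of 165 members and the highest for 12, and high dose 1 was lowest for 23 and highest for 23. The column names of these 2 libraries share a number that no other DCCO column holds. Among the other columns, controls all hold the same number and high dose embryos all hold a different number, while medium dose embryos are split between them. What the number stands for is not stated, and without these 2 libraries it cannot be told apart from the high dose. Column names of DCCO controls also carry another prefix than those of all exposed DCCO embryos, and what it stands for cannot be told apart from exposure. JQ control 5 lay inside the range of the other controls for 98 of 168 members (58.3%), against 58.6% of all features.

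At the high dose in JQ, members were called about as often as other features. Of 168 members tested, 4 rose and 1 fell against controls (adjusted p under 0.05 by edgeR, with p-values adjusted over all features by the Benjamini-Hochberg method). These 5 are 2.98% of the members tested, where 3.56% of all 14927 features were called, 2.12% higher and 1.44% lower, so the share is near the background. Groups did not overlap for 4 of the 168 members, all higher at the high dose. That is a smaller share than the 4.9% of all features (732 of 14927). At an unadjusted p under 0.05 there were 16 of the 168 members, a smaller share than the 16.6% of all features (2479 of 14927). None of the 25 G2/M and mitosis genes, the 20 genes of G1/S and replication, the 16 centromere and kinetochore genes or the 4 subunits of the anaphase-promoting complex was called by edgeR, and at an unadjusted p under 0.05 there were 1, 2, 0 and 0 of them. DESeq2 called 6 members in all. The called members were CENPV and a feature named CENPV-like, the kinesins KIF21A and KIF17, and the transcriptional kinase CDK19. Roles were assigned after values were seen. CENPV and CENPV-like, though named for the centromere, were placed among other members and are not counted in the 16 centromere and kinetochore genes. The lack of calls among those 16 depends on this placement, and whether CENPV acts at the centromere here was not tested. The count fell to 2 without high dose 5 or control 1, 4 or 5, and to 3 without high dose 3.

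CENPV, named centromere protein V and known in mammals as a microtubule-associated protein, rose in JQ. It stood at 36.0, 37.5, 47.5, 50.2 and 38.2 CPM in high dose embryos 1 to 5, against 19.3, 21.9, 20.0, 22.9 and 23.6 CPM in controls 1 to 5. Every high dose embryo was above every control, with a log2 fold change of 0.96 ± 0.13 (SE; adjusted p = 0.000964 by edgeR). Medium dose embryos lay at 28.6, 22.6, 21.1, 27.5 and 34.1 CPM, so that 3 of the 5 were above every control. Their log2 fold change against controls, 0.31, did not pass (adjusted p = 0.999 by edgeR).

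CENPV-like, a name close to CENPV with which it may share reads, rose as well. Its levels were 5.80, 6.76, 8.25, 7.63 and 6.93 CPM in high dose embryos and 3.27, 3.61, 3.10, 3.77 and 3.57 CPM in controls. The groups did not overlap, and the log2 fold change was 1.03 ± 0.16 (adjusted p = 0.00207 by edgeR). All 5 medium dose embryos, at 5.12, 4.08, 3.81, 3.90 and 6.63 CPM, were also above every control. Their log2 fold change of 0.43 did not pass the test (adjusted p = 0.999 by edgeR).

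CDK19, a kinase of the Mediator complex that acts in transcription, was higher too. It was at 15.3, 13.2, 18.4, 17.5 and 17.6 CPM in high dose embryos and at 9.89, 12.2, 12.7, 10.4 and 9.00 CPM in controls, without overlap. The log2 fold change was 0.60 ± 0.14 (adjusted p = 0.0225 by edgeR). That call ended without high dose 3 or 5 or control 1, 4 or 5 (adjusted p of 0.056 to 0.0643). Its close relative CDK8 changed by 0.28 on the log2 scale and was not called (adjusted p = 0.209).

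KIF21A, a kinesin that restrains microtubule growth, was at 66.6 to 73.7 CPM in high dose embryos. Controls were at 42.9 to 47.3 CPM apart from control 2, which was at 67.7 CPM, so the groups overlapped. The log2 fold change was 0.48 ± 0.11 (adjusted p = 0.0225 by edgeR). Without high dose 5 or control 1, 3, 4 or 5 the adjusted p was 0.0559 to 0.066, and the call ended.

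KIF17, a transport kinesin studied mostly in mouse neurons and cilia, was the member called lower. It was at 21.8, 30.2, 24.1, 27.1 and 25.4 CPM in high dose embryos, against 35.3, 37.4, 27.0, 38.2 and 36.4 CPM in controls. The groups overlapped through control 3 and high dose 2 and 4. The log2 fold change was -0.44 ± 0.11 (adjusted p = 0.0375 by edgeR). This call ended with no filter on low counts (adjusted p = 0.060) and when high dose 1, 3, 4 or 5, medium dose 4, or control 1, 2, 4 or 5 was left out (0.0516 to 0.102).

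**Figure D1:**
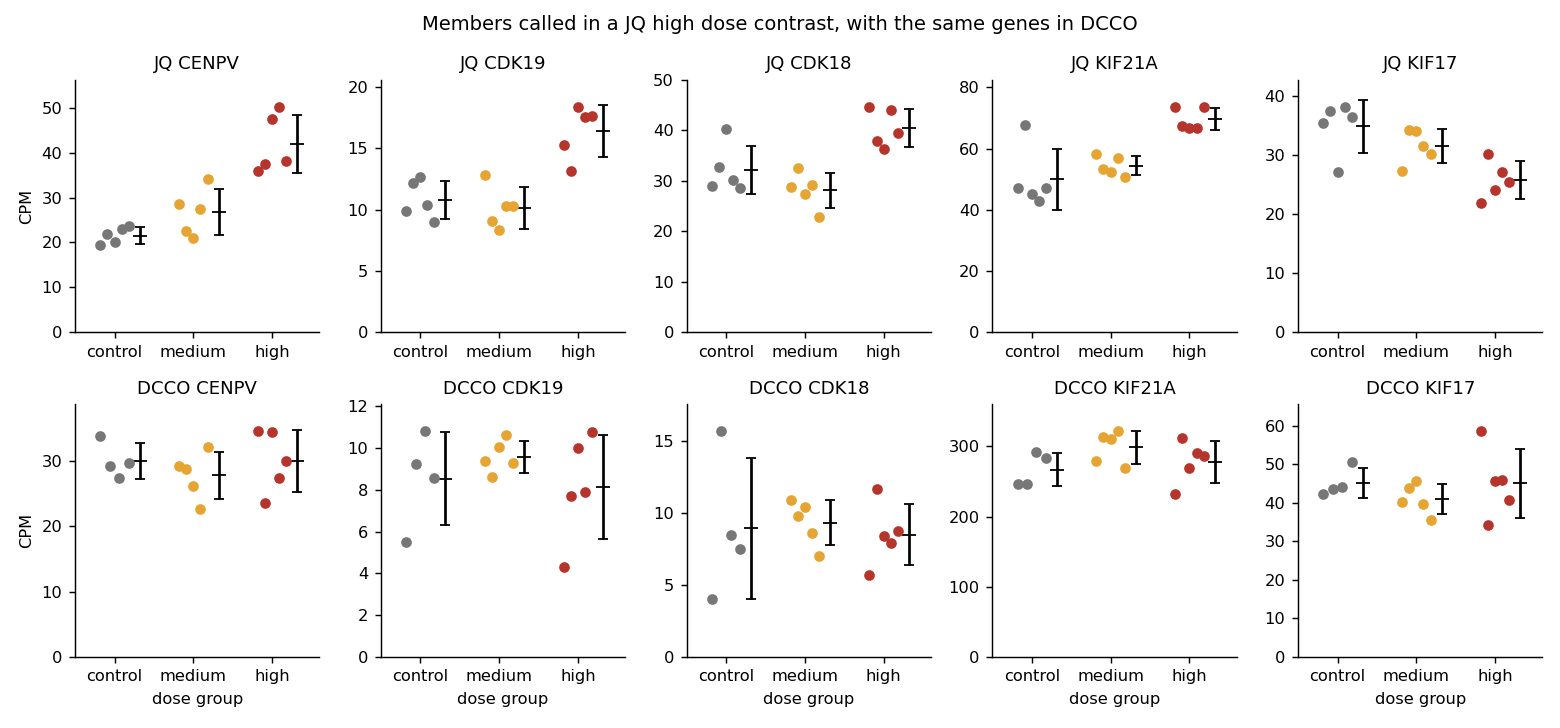
CPM (vertical axes, from 0) of 5 members by dose group, JQ above and DCCO below. Each point is 1 library and black bars give mean and SD. JQ CENPV was at 36.0 to 50.2 CPM at the high dose and 19.3 to 23.6 CPM in controls, while in DCCO the groups overlapped.

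Other members had larger fold changes that did not pass. KIF1A, which carries synaptic vesicle precursors in neurons, was at 25.1, 9.35, 32.6, 23.5 and 36.6 CPM in high dose embryos and at 10.03, 7.73, 18.7, 7.29 and 7.80 CPM in controls. High dose 2 lay among the controls, and the log2 fold change was 1.31 ± 0.36 (adjusted p = 0.0635 by edgeR). KIF12 had the highest log2 fold change of the 168 members, 2.35 ± 1.04 (adjusted p = 0.267), and it rested on high dose 1, at 11.1 CPM, since no other JQ library was above 1.04 CPM. In the same library the bile duct marker SPP1 was at 187 CPM, and no other JQ library exceeded 62.2 CPM. Whether this bears on KIF12 was not tested.

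A few markers of liver cell types were called at the high dose in JQ. Of 12 hepatocyte markers tested, 2 were called lower and none higher by edgeR, F2 with a log2 fold change of -0.54 (adjusted p = 0.0284) and PLG with -0.94 (adjusted p = 0.00941). The list went both ways: 9 of the 12 were negative, and HNF4A (0.74, adjusted p = 0.1), APOA1 (0.44, 0.0774) and APOB (0.19, 0.755) were positive without passing. At an unadjusted p under 0.05 by edgeR, 8 of the 12 were lower and 2 higher, where 16.6% of all features passed. The median over the 12 was -0.62, and the mean log2 CPM of the list was 11.15 to 11.94 in high dose embryos and 12.06 to 12.33 in controls. Of 4 bile duct markers tested, SPP1 alone was called, with 2.53 (adjusted p = 0.00443), EPCAM, SOX9 and CFTR had adjusted p of 0.407 to 0.945, and the list's mean log2 CPM was 3.49 to 4.34 in high dose embryos and 2.81 to 3.43 in controls. None of 7 erythroid, 6 macrophage, 6 endothelial, 6 stellate and fibroblast or 2 thrombocyte and granulocyte markers tested was called. The macrophage list had a median of -0.63, with 1 of 6 positive, and at the medium dose -0.68, with 0 of 6 positive. High dose medians were -0.20 for erythroid (1 of 7 positive), -0.16 for endothelial (1 of 6) and -0.09 for stellate and fibroblast markers (2 of 6). The part of these shifts in the changes of CENPV, CENPV-like, CDK19, KIF21A and KIF17 was not tested.

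Genes that execute mitosis showed a wide spread at the high dose in JQ and no called change. CDK1, the kinase that starts mitosis, was at 182, 320, 120, 141 and 183 CPM in high dose embryos and at 208, 223, 166, 207 and 232 CPM in controls. High dose 2 was above and high dose 3 and 4 were below every control. CCNB1, the cyclin that activates CDK1, was at 135, 224, 87.8, 109 and 139 CPM in high dose embryos and at 142, 136, 110, 133 and 141 CPM in controls. AURKA, the aurora kinase of the spindle poles, was at 35.6, 55.3, 22.5, 28.8 and 40.0 CPM in high dose embryos, against 39.3, 44.8, 27.8, 38.5 and 36.6 CPM in controls. For all of them high dose 2 was the highest of the 15 JQ embryos and high dose 3 the lowest.

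The log2 fold change was -0.13 for CDK1 (95% interval -0.56 to 0.30), 0.07 for CCNB1 (-0.33 to 0.46) and -0.04 for AURKA (-0.45 to 0.37), with adjusted p of 0.815 to 0.952 by edgeR. CDK1 was at -0.41 without high dose 2 and at -0.0041 without high dose 3. CCNB1 was at -0.17 without high dose 2, and AURKA at 0.09 without high dose 3. Over the 25 G2/M genes the values ran from -0.58 to 0.19 with a median of -0.07, and 18 were negative. The 95% intervals of these genes reached a median of 0.40 to either side of the estimate, before any adjustment for the number of features. KIF18A, a kinesin that aligns chromosomes, had the lowest value, with 10.4 ± 3.74 CPM in high dose embryos and 15.5 ± 2.89 CPM in controls (SD, n = 5 each). It did not pass (adjusted p = 0.144 by edgeR).

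**Figure D2:**
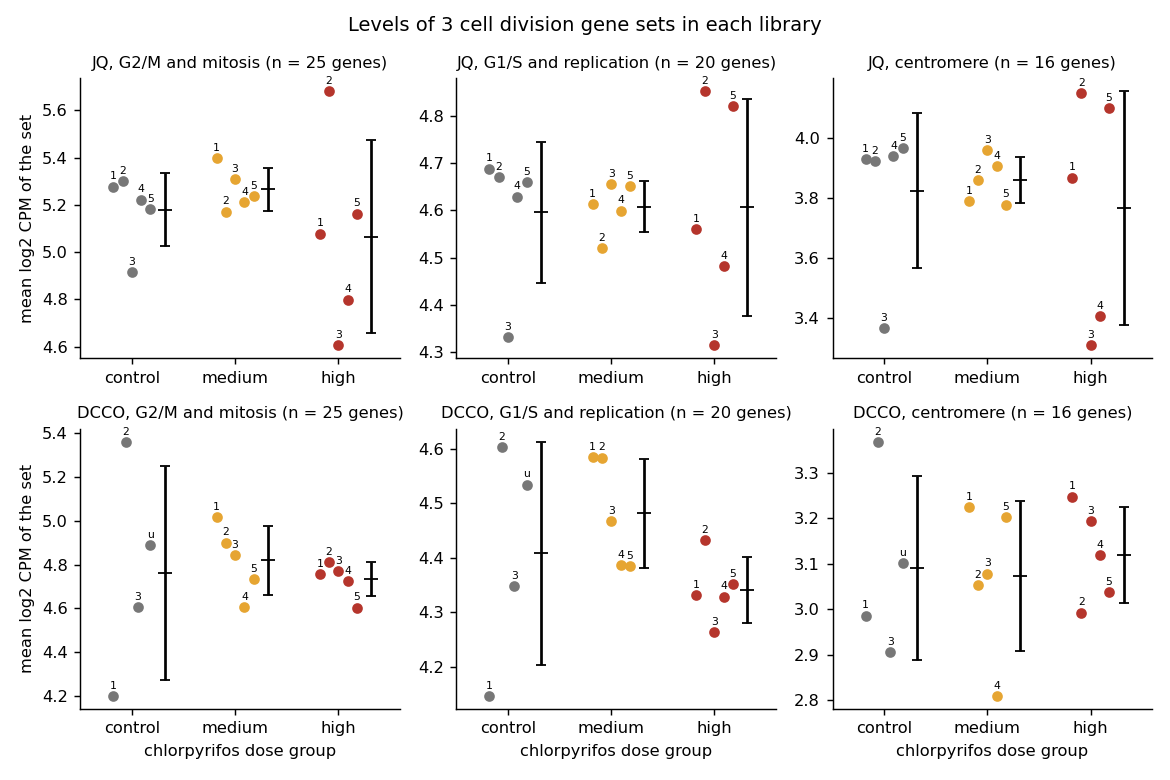
Mean log2 CPM of 3 gene sets (vertical axes, which do not start at 0) in each library by dose group, JQ above and DCCO below. Numbers are replicates, u is the DCCO control without a replicate number, and black bars give mean and SD. JQ high dose libraries spanned 4.61 to 5.68 for the G2/M set, and DCCO controls 4.20 to 5.36.

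As a set, the 25 G2/M genes had a mean log2 CPM of 5.28, 5.30, 4.92, 5.22 and 5.18 in JQ controls 1 to 5. Medium dose embryos were at 5.40, 5.17, 5.31, 5.21 and 5.24, and high dose embryos at 5.08, 5.68, 4.61, 4.80 and 5.16. For 23 of the 25 genes the SD of log2 CPM was larger at the high dose than in either other group, as it was for 6357 of 14927 features. These genes moved together, with 25 above their group mean in high dose 2 and 24 below it in high dose 3. The 23 genes are therefore not separate observations, and the spread rests on 5 embryos. The median SD was 0.19 in controls, 0.16 at the medium dose and 0.45 at the high dose. High dose 2 was the highest of the 15 JQ libraries for 19 of the 25 genes, and high dose 3 the lowest for 21. The hepatocyte marker mean was 11.94 in high dose 2, 11.87 in high dose 3 and lowest, at 11.15, in high dose 1.

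Replication genes also spread widely at the high dose in JQ, in a partly different order of embryos. Against their group mean, the 20 G1/S genes averaged 0.25 in high dose 2, 0.22 in high dose 5 and -0.29 in high dose 3 on the log2 scale. MCM5, a subunit of the replicative helicase, was at 122, 165, 69.5, 108 and 176 CPM in high dose embryos and at 116, 138, 99.0, 105 and 119 CPM in controls. MCM2, another subunit, was at 109, 137, 75.7, 93.9 and 151 CPM in high dose embryos, against 130, 129, 94.98, 114 and 125 CPM in controls. High dose 2 was the highest of the 15 JQ libraries for 9 of the 20 G1/S genes and high dose 5 for 6, while high dose 3 was the lowest for 8 and control 3 for 6. The log2 fold changes were 0.15 for MCM5 and -0.07 for MCM2 (adjusted p of 0.78 and 0.891 by edgeR). CENPA, the histone that marks centromeres, ranged over 3.10 to 9.24 CPM in high dose embryos and 3.99 to 6.71 CPM in controls.

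Among G1 genes, CDK4 had the highest value of the G1/S set, without passing the test. It was at 19.1, 17.0, 27.0, 21.7 and 15.4 CPM in high dose embryos and at 15.7, 14.5, 13.1, 17.4 and 15.5 CPM in controls (log2 fold change 0.40, adjusted p = 0.156 by edgeR). CCND1, cyclin D1, which activates CDK4, was at 12.2, 13.6, 15.8, 15.6 and 20.2 CPM in high dose embryos, against 13.6, 12.7, 12.1, 14.8 and 10.9 CPM in controls (0.27, adjusted p = 0.299). The groups overlapped for both. CCNG1, cyclin G1, a p53 target in mammals, was at 33.5 to 61.5 CPM in high dose embryos and 16.0 to 40.7 CPM in controls (0.44, adjusted p = 0.328). Of the 4 CDK inhibitors tested, CDKN1B had the smallest adjusted p (0.330). CDKN1A, the p21 gene, had 76 reads over all JQ libraries and was not tested there.

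**Figure D3:**
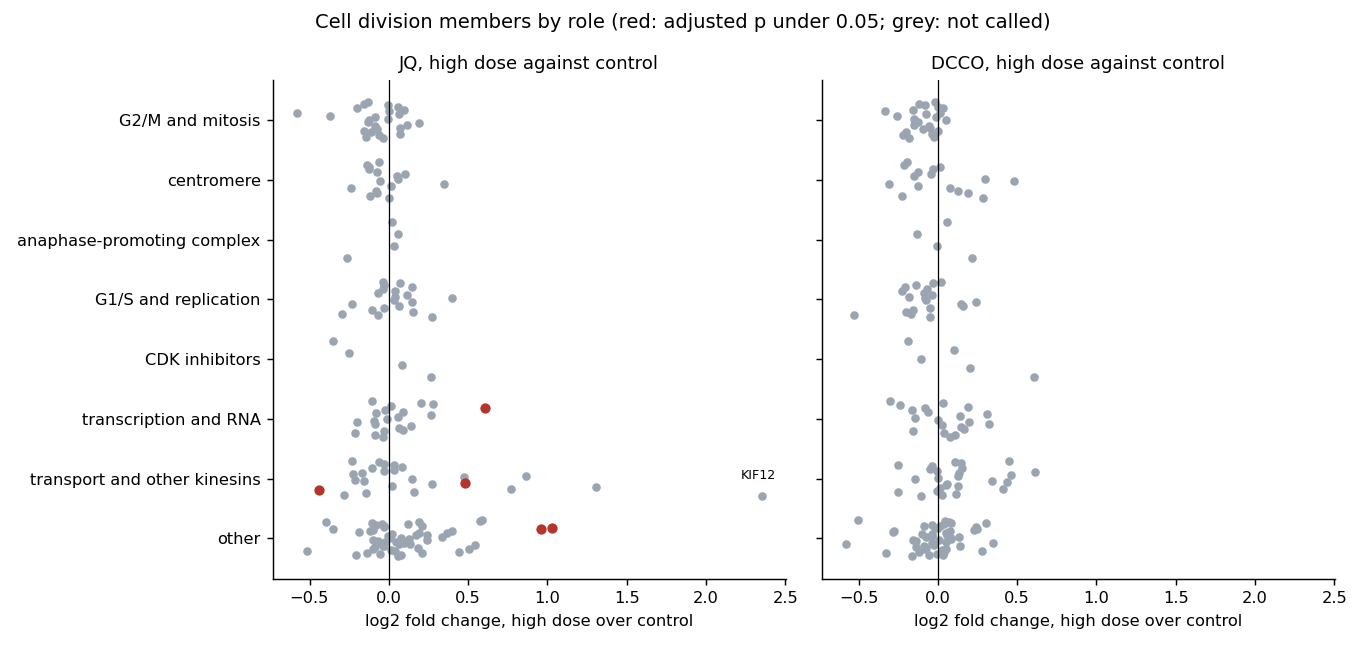
Log2 fold changes of the high dose over control (horizontal axis) for the members tested, by role, in JQ on the left and DCCO on the right. Each point is 1 member, red where called. JQ has 5 red points, none of them in the G2/M, centromere or G1/S rows, and DCCO has none. CENPV and CENPV-like are in the row of other members, not in the centromere row.

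Division genes outside the members, from lists of replication, mitosis and regulator genes, were not called at the high dose in JQ. This held for 26 S phase, 31 mitosis and 11 regulator genes tested, where 3.56% of all features were called. Among these genes 1 had an unadjusted p under 0.05 by edgeR (16.6% of all features), BUB1 of the spindle checkpoint, at -0.60. The median log2 fold change was 0.03 for S phase, -0.04 for mitosis and 0.0077 for regulators, beside 0.0077 over all features and -0.0025 over the members. Of 6 genes of growth arrest and the p53 response tested, GADD45A, induced by DNA damage and other stress, rose. It was at 17.0, 17.2, 14.1, 20.4 and 19.4 CPM in high dose embryos and at 9.98, 10.502, 10.462, 10.2 and 9.00 CPM in controls (log2 fold change 0.81, adjusted p = 0.00108 by edgeR). The groups did not overlap. GADD45B went the other way without passing, at -0.50 (adjusted p = 0.263, unadjusted 0.0378). In DCCO, GADD45A was at 7.60 to 12.3 CPM in high dose embryos and 8.41 to 20.9 CPM in controls. Its log2 fold change there was -0.60 (adjusted p = 0.71, unadjusted 0.0122 by edgeR).

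At the medium dose in JQ no member was called. None of 168 passed by edgeR, as for all features (0% called), and DESeq2 called none. An unadjusted p under 0.05 was found for 7 of the 168, where 646 of 14927 features (4.33%) had it. CENPV-like alone lay above every control, where 0.891% of all features did not overlap. The 5 smallest p belonged to a feature named cyclin-dependent kinase B1-1-like (log2 fold change 0.90), CENPV-like (0.43), CDK10 (0.37), CENPV (0.31) and CDK5R1, an activator of CDK5 (0.64). Their adjusted p was 0.999 by edgeR. The G2/M genes were positive for 23 of 25, from -0.18 to 0.26 with a median of 0.08. They vary together between embryos, so they are not separate observations, and in control 3 the level of 22 of the 25 was below the control mean. Both doses are set against the same controls.

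Between the doses in JQ, 3 of 168 members rose at the high dose over the medium dose and none fell, where 1.89% of all features were called. They were CDK19 and CENPV again, with log2 fold changes of 0.69 and 0.65 (adjusted p of 0.015 and 0.0191 by edgeR), and CDK18. CDK18, a kinase of the PCTAIRE group outside the core cell cycle, was at 44.7, 37.9, 36.2, 44.0 and 39.5 CPM at the high dose and at 28.7, 32.5, 27.5, 29.1 and 22.8 CPM at the medium dose. Its log2 fold change was 0.52 ± 0.11 (adjusted p = 0.025), and 0.33 against controls (adjusted p = 0.123). Groups did not overlap for 5 of the 168 members, where 2.93% of all features did not. Among the 5 was CDK9, the kinase that releases paused RNA polymerase (log2 fold change 0.42, adjusted p = 0.0952 by edgeR). CENPV-like had a log2 fold change of 0.60 (adjusted p = 0.072). DESeq2 called 6 members here, among them CENPV-like (adjusted p = 0.00954) and CDK9 (0.0328). By edgeR, CENPV-like also passed without high dose 1 (0.0489) or medium dose 5 (0.0168), and CDK9 without high dose 1 (0.0375). At an unadjusted p under 0.05 there were 14 of the 168 members, a smaller share than the 13.4% of features (1998 of 14927).

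Leaving out single libraries ended the calls of CDK18 and CENPV, but not that of CDK19. The count was 5 without high dose 2 and 1 without medium dose 3. CDK18 lost its call without high dose 1 or 4 or medium dose 3, 4 or 5 (adjusted p of 0.055 to 0.0649). CENPV lost it without high dose 3 or medium dose 2 or 3 (0.0515 to 0.0546). The high dose embryos are shared with the comparison to controls.

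In DCCO no member was called at either dose. Against controls, none of 165 members passed at the high dose by edgeR, where 0.0343% of 14579 features were called, or at the medium dose, where 0.048% were. Between high and medium dose none passed, and 0% of features did. Of the 165 members, 6 had an unadjusted p under 0.05 at the high dose, where 777 of 14579 features did (5.33%). There were 8 of 165 at the medium dose (833 features, 5.71%) and 9 of 165 between the doses (475 features, 3.26%). DESeq2 called KIFC2 and CCND2 at the high dose, KIFC2 between the doses and no member at the medium dose.

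The members nearest to a call in DCCO were not those called in JQ. KIFC2, a kinesin of the minus-end directed group, was at 25.4, 22.98, 28.6, 25.9 and 27.0 CPM in high dose embryos, against 22.3, 17.4, 19.1 and 17.3 CPM in controls. CCND2, cyclin D2, was at 8.44, 9.05, 8.97, 11.02 and 9.77 CPM in high dose embryos, against 12.9, 11.9, 15.1 and 14.6 CPM in controls. CDK11B, a kinase of transcription and splicing, was at 29.1 to 34.0 CPM in high dose embryos and 23.5 to 26.5 CPM in controls. Groups did not overlap for these 3 of 165 members, where 1.58% of all features did not. The log2 fold changes were 0.45 ± 0.11 for KIFC2, -0.53 ± 0.13 for CCND2 and 0.31 for CDK11B (adjusted p of 0.266, 0.315 and 0.602 by edgeR). KIF3A (0.61) and DMTF1 (-0.30) followed, with adjusted p of 0.687 and 0.889. Without control 1 and high dose 1 the values were 0.54 for KIFC2, -0.51 for CCND2 and 0.36 for CDK11B (adjusted p of 0.0675, 0.239 and 0.262 by edgeR). In that fit the high dose and the number in the column names cannot be told apart. In JQ, CCND2 was at 6.20 to 7.63 CPM at the high dose and 6.64 to 7.35 CPM in controls.

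At the medium dose in DCCO the smallest p belonged to KIF3A, a motor of transport within cilia. It was at 8.60 to 10.92 CPM in medium dose embryos and 5.09 to 7.88 CPM in controls, with a log2 fold change of 0.54 (adjusted p = 0.812 by edgeR). CENPX of the kinetochore (-0.33), DMTF1, a transcription factor that binds D cyclins (-0.32), CDK16-like (-0.25) and CDC16 of the anaphase-promoting complex (0.29) followed, with adjusted p of 0.812 to 0.848. Groups did not overlap for 4 of 165 members at the medium dose (2.42% of all features) and for 4 of 165 between the doses (0.905%). The 5 smallest p between the doses belonged to KIFC2 (0.45), CDK16-like (0.33), CCND2 (-0.39), the splicing cyclin CCNL2 (0.26) and CDK16 (0.31), with an adjusted p of 1 by edgeR.

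Mitotic genes varied most among the controls in DCCO. CDK1 was at 108, 84.4, 96.6, 91.0 and 79.5 CPM in high dose embryos. It was at 74.7, 147 and 79.6 CPM in controls 1 to 3, with 100.5 CPM in the control without a replicate number. AURKA was at 57.1, 41.4, 43.7, 44.9 and 37.1 CPM in high dose embryos and at 30.9, 86.7, 36.3 and 50.2 CPM in controls. Control 2 was the highest of 14 libraries for 22 of 25 G2/M genes and control 1 the lowest for 18. The SD of log2 CPM was largest in controls for 23 of the 25 genes, as it was for 7261 of 14579 features. Here too the genes moved together, with 25 above their group mean in control 2 and 22 below it in control 1, so they are not separate observations. Control 2 was also the lowest of the 14 libraries in the mean of hepatocyte (11.51), bile duct (3.27), erythroid (4.09) and macrophage (2.46) markers, and the part of these in its mitotic level was not tested.

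Set means of the high dose embryos in DCCO lay within the range of the controls. The G2/M mean was 4.20, 5.36, 4.60 and 4.89 log2 CPM in controls, 4.60 to 5.02 at the medium dose and 4.60 to 4.81 at the high dose. The median log2 fold change at the high dose was -0.08 over the 25 G2/M genes, with 20 negative, and -0.08 over the 20 G1/S genes, with 16 negative. For CDK1 it was -0.13 (95% interval -0.51 to 0.25) and for CCNB1 -0.04 (-0.41 to 0.33), and neither passed (adjusted p = 1 by edgeR). The intervals of the G2/M genes reached a median of 0.43 to either side. Without control 2 the value of CDK1 was 0.11 and that of AURKA 0.20, and without control 1 and high dose 1 they were -0.31 and -0.47. Of 25 S phase, 31 mitosis and 11 regulator genes outside the members none was called, where 0.0343% of all features were. None of these genes had an unadjusted p under 0.05 by edgeR, where 5.33% of all features did. No cell type marker was called at the high dose either. Of 6 erythroid markers 5 were positive, with a median of 0.61, and 3 had an unadjusted p under 0.05 by edgeR (HBAA, GATA1 and SLC4A1, adjusted p of 0.615 to 0.903). Their median was 0.56 at the medium dose. At the high dose the endothelial marker LYVE1 also had an unadjusted p under 0.05 by edgeR, at -0.40 (adjusted p = 0.889). Hepatocyte markers had a high dose median of 0.02 and macrophage markers -0.11. The part of these in the levels of members was not tested.

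**Figure D4:**
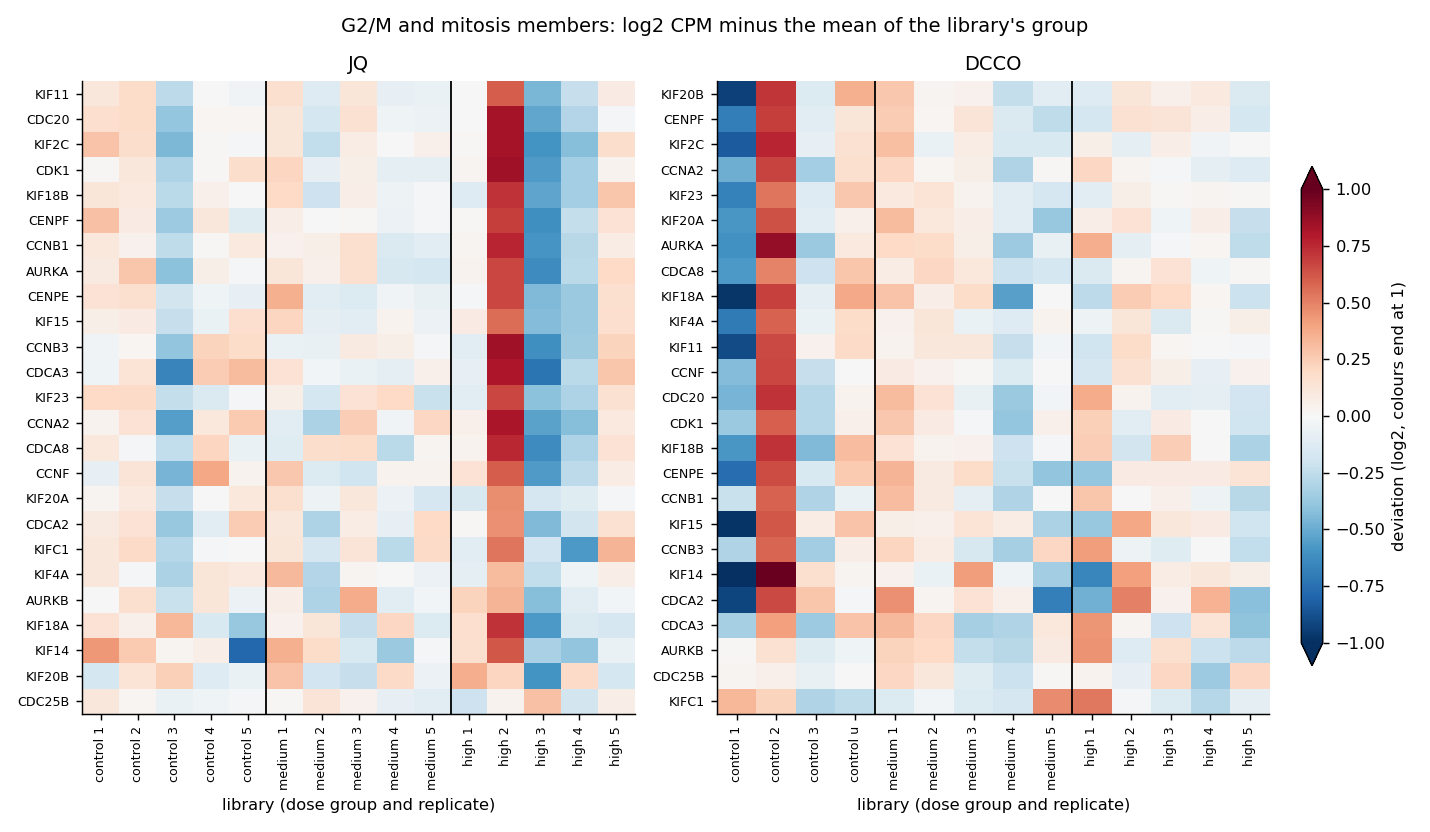
Log2 CPM of each G2/M gene (rows) minus the mean of the library's own dose group (columns), JQ on the left and DCCO on the right. Rows are ordered by their correlation with the mean of the other G2/M genes, red is higher and blue lower, and colours end at 1 log2 unit. JQ high dose 2 and DCCO control 2 are red for most genes, and JQ high dose 3 and DCCO control 1 are blue.

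Within dose groups, mitotic genes varied together from embryo to embryo in both species. After the group means were removed, the median Pearson correlation over the 300 pairs of 25 G2/M genes was 0.78 in JQ (15 libraries) and 0.75 in DCCO (14 libraries), with 280 positive pairs in each. The median Spearman correlation was 0.65 in JQ and 0.59 in DCCO. Without high dose 2 and 3 in JQ, the most extreme libraries, the median Pearson value was 0.58 over 13 libraries, and without controls 1 and 2 in DCCO it was 0.43 over 12. All values share the depth and the scaling of each library. The 20 G1/S genes had medians of 0.34 in JQ and 0.23 in DCCO, and the 16 centromere genes 0.61 in JQ and 0.20 in DCCO. Among transport kinesins the median was 0.09 in JQ and 0.11 in DCCO.

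The members most like the mean of the other G2/M genes in JQ were KIF11, a motor that separates the spindle poles (Pearson 0.99), CDC20 (0.98), KIF2C (0.98), CDK1 (0.97) and KIF18B (0.97). In DCCO they were KIF20B (0.96), CENPF (0.95), KIF2C (0.94), CCNA2 (0.94) and KIF23 (0.93). Mitosis genes that are no members had median values of 0.90 in JQ and 0.88 in DCCO, beside -0.03 in JQ and 0.02 in DCCO over all features. The least alike of the 25 were CDC25B in JQ (-0.10) and KIFC1 in DCCO (-0.10). Hepatocyte markers had a median of 0.0087 in JQ and -0.50 in DCCO, and macrophage markers -0.16 in JQ and -0.72 in DCCO. The other cell type lists in JQ were at -0.11 (bile duct), 0.07 (erythroid), -0.29 (endothelial), -0.27 (stellate and fibroblast) and -0.09 (thrombocyte and granulocyte). In DCCO the same lists, in this order, were at -0.56, -0.28, -0.19, -0.47 and 0.25.

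The response to the high dose differed between the species for 1 of 172 members, CENPV, where 1.21% of 15596 names were called. The JQ effect minus the DCCO effect was 0.95 ± 0.19 on the log2 scale (95% interval 0.56 to 1.34, adjusted p = 0.00706 by edgeR). In DCCO, CENPV was at 34.6, 23.6, 34.5, 27.4 and 30.1 CPM in high dose embryos and at 33.8, 29.3, 27.4 and 29.7 CPM in controls, with a log2 fold change of -8.64e-05 (-0.28 to 0.28). Under 35 alternatives the difference kept its call, with adjusted p of 0.000582 to 0.0355. It was 0.68 for CDK19 (adjusted p = 0.253), 0.41 for KIF21A (0.206), -0.44 for KIF17 (0.289), 1.29 for KIF1A (0.152) and 1.33 for CENPV-like (0.123), none of which passed. CENPV-like had 64 reads in all DCCO libraries together. In these differences species, age and the strength of the dose cannot be told apart, nor can exposure and the column prefix in DCCO.

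Further members with a small p for this difference were CDK8 (0.51), CCND2 (0.45), the cyclin CCNG2 (-0.80), KIFC2 (-0.69), KIF3A (-0.65) and CDK11B (-0.40), with adjusted p of 0.175 to 0.274 by edgeR. CDC2L1, an older name of a CDK11 kinase, held 82.1% of the reads of CDC2L1 and CDK11B in JQ and 0.342% in DCCO. The CDK11B difference therefore sets a part of these reads in JQ against nearly all of them in DCCO. At an unadjusted p under 0.05 there were 21 of 172 members, where 1841 of 15596 names passed (11.8%). A second member was called when JQ high dose 1 or 2, JQ control 2 or 3 or DCCO high dose 1 was left out. It was KIFC2 without JQ high dose 1, KIF1A without JQ high dose 2 or control 3, and KIF3A without DCCO high dose 1. For CDK1 the difference was -0.01 (95% interval -0.59 to 0.57) and for CCNB1 0.10 (-0.45 to 0.65). At the medium dose no member differed between species by edgeR or DESeq2, where 0% of names were called. An unadjusted p under 0.05 was found for 9 of 172 members, where 1030 of 15596 names (6.6%) had it. The 5 smallest p belonged to CDK5R1 (1.29), the B1-1-like kinase (1.26), CENPV-like (1.17), CENPM (0.63) and KIF3A (-0.56), with adjusted p of 0.629 to 0.7 by edgeR.

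Between the controls of the species, 67 members were higher and 55 lower in JQ of 172 tested, which is 70.9%. Of all names 73.6% were called by edgeR, 36.3% higher and 37.4% lower, so the share is near the background. At an unadjusted p under 0.05 there were 126 of the 172 members (75.4% of all names). Groups did not overlap for 54 of the 172 that were higher and 47 that were lower (62.7% of all names). Species, day of sampling and the way reads are assigned to names cannot be told apart here, and the CPM values of this comparison are scaled over all 29 libraries. By role, 12 G2/M genes were higher and 3 lower of 26, 9 and 3 of 20 G1/S genes, 9 and 4 of 16 centromere genes, and 5 and 13 of 26 transport kinesins. AURKB was among the 3 lower G2/M genes, and it was not called once AURKB-like was summed into it (adjusted p = 0.0638 by edgeR). The median log2 ratio of JQ over DCCO was 0.51 for G2/M genes and -0.70 for transport kinesins, against 0.00030 over all names.

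CDK1 averaged 218 ± 27.3 CPM in JQ controls (SD, n = 5) and 96.7 ± 31.1 CPM in DCCO controls (n = 4), a log2 ratio of 1.17 ± 0.21 (SE). CCNB1 averaged 139 ± 13.97 CPM in JQ and 57.5 ± 17.5 CPM in DCCO, a log2 ratio of 1.27 ± 0.20. CDC25B, a phosphatase that activates CDK1, averaged 60.7 ± 3.09 CPM in JQ and 14.2 ± 0.525 CPM in DCCO. For all 3 the groups did not overlap. AURKA, KIF11, CDC20 and KIF20A were not called, with log2 ratios of -0.32 to 0.20.

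In the G1 phase the order differed among genes. CCNE1, cyclin E1, averaged 4.96 ± 0.375 CPM in JQ and 10.9 ± 0.366 CPM in DCCO, and CCND2 averaged 7.37 ± 0.256 CPM in JQ and 13.1 ± 1.42 CPM in DCCO. CDK6 was higher in JQ, with 20.4 ± 1.77 CPM in JQ and 5.04 ± 1.47 CPM in DCCO. These groups did not overlap. CENPH and CENPK, of the inner kinetochore, had log2 ratios of 5.61 and 3.96, and MCM8, a helicase of DNA repair, 3.53. Among the kinesins, KIF21A (-2.29) and KIF1C (-2.46) were lower in JQ.

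**Figure D5:**
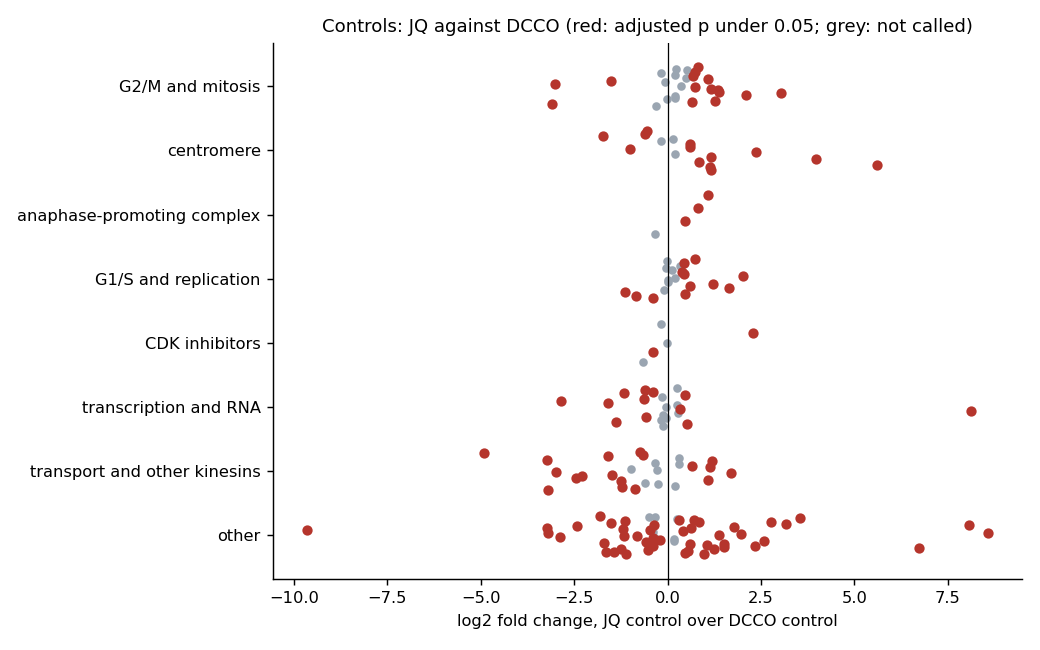
Log2 ratio of JQ controls over DCCO controls (horizontal axis) for 172 members by role. Each point is 1 member, red where called. Of the 26 G2/M genes, 12 are red to the right and 3 to the left. AURKB is among the 3, with the reads of AURKB-like counted apart.

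Several of the largest ratios fall on names that split reads differently in each table. CDK4-like held 0.527% of the reads of CDK4 and CDK4-like in JQ and 84.2% in DCCO. AURKB-like held 92.5% of those of AURKB and AURKB-like in JQ and 54.1% in DCCO, and CENPJ-like 76% of those of CENPJ and CENPJ-like in JQ and 0.221% in DCCO. CDC2L1, an older name of a CDK11 kinase, held 82.1% of the reads of CDC2L1 and CDK11B in JQ and 0.342% in DCCO. With each like name summed into its base name, the log2 ratio was -0.35 for AURKB (adjusted p = 0.0638), against -3.09 apart. For CENPJ it was -0.32 (adjusted p = 0.139), against -2.42 apart. For CDK4 it was -2.46 (adjusted p = 3.53e-14), against 0.19 apart, all by edgeR.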

How the data were processed

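The deposited tables hold whole-number read counts per protein name, and their names state Seq2Fun and a database of all birds. Settings, filters and versions the authors used are not stated in the labels, and edgeR is named in the submitters' processing notes without a role. Control columns carry the letter S beside H for high and M for medium. A DCCO control column holds a number that no DCCO control title has, so it was used without a replicate number. It is the only control column left unmatched, and only the last control title is left without a column. All columns of libraries were used.

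The deposited counts went into edgeR 4.0.16 in R 4.3.3, with TMM scaling, filterByExpr (minimum count 10, minimum total 15) and the robust quasi-likelihood test. The libraries of a species shared 1 fit, and contrasts between species used 1 fit of all 29 libraries on shared names. P-values were adjusted over all features tested, and "called" means an adjusted p under 0.05. SE is the fold change on the log2 scale over the root of F. CPM values are TMM-scaled. No source says that libraries of a group came from separate clutches, and p-values cover only the spread among them. The code was tested on simulated data.

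Members, gene lists and the naming rule were chosen with earlier results of these data known. The rule names called members, the 5 with the smallest p where few were called, and listed cyclins, CDKs, CDC, MCM, CENP, KIF and AURK genes, here partly summarised by role. Roles, the 12 genes followed through the alternatives, and KIF12, KIF18A, CCNG1, CDKN1B, BUB1, GADD45A, GADD45B, the named cell type markers, CENPK and CDC2L1 were chosen after values were seen.

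Alternatives were another size factor (relative log expression), no count filter, DESeq2 1.42.0, a replicate block and leave-one-out. Added after seeing the data were like names summed, and DCCO without control 1 and high dose 1. Of the 187 symbols, 153 occur in a RefSeq gene table, and sequences are not used here.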

Additional observations from a re-analysis of the deposited data

Results flagged for a closer look

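Of 171 groups of 4 or 5 libraries checked for a library far from the others, 10 were flagged (5.85%). Chance flags about 1 in 20 among groups picked without regard to their values. Some genes, such as KIF12, were checked after their values had been seen, so these rates cannot be compared. In JQ high dose embryos, KIF12 was at 11.1 CPM in high dose 1, with the next at 0.641 CPM, and CDC20 was at 155 CPM in high dose 2, with the next at 87.0 CPM. At the medium dose in JQ, KIF12 was at 1.04 CPM in medium dose 2, with the next at 0.436 CPM, and MCM2 was at 105 CPM in medium dose 5, with the nearest at 119 CPM.

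In JQ controls, KIF21A was at 67.7 CPM in control 2, with the next at 47.3 CPM, and CDK5R1, an activator of CDK5, was at 1.13 CPM in control 1, with the next at 0.831 CPM. Control 3 stood apart in several values: KIF17 was at 27.0 CPM, with the nearest at 35.3 CPM, and KIF1A at 18.7 CPM, with the nearest at 10.03 CPM. Its mean log2 CPM was 4.33 for the G1/S set, with the nearest control at 4.63, and 3.37 for the centromere set, with the nearest at 3.92.

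CENPV differed between the species in its response to the high dose, by 0.95 on the log2 scale in the test of the difference itself. In that test species, age and the strength of the dose cannot be told apart.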

How the results depend on the processing

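Over 84 results for named members, 2030 of 2117 alternative values kept direction and side of the threshold, 32 lost a call, 12 gained one and 43 changed sign. The number of members called at the JQ high dose was 2 to 7 when 1 library was left out. Between the JQ doses it was 1 with the replicate block, 6 with DESeq2 and 1 to 5 by leave-one-out. With DESeq2 it was 2 at the DCCO high dose and 1 between the DCCO doses. For the species difference in the high dose effect it was 1 to 2 by leave-one-out. The replicate block also ended the calls of CDK19 against controls (adjusted p = 0.0645) and of CDK19 and CDK18 between the JQ doses. Same-numbered libraries correlated at -0.121 to 0.147 in JQ. In DCCO they correlated at -0.119 to 0.385, with a median of 0.162 over 11 pairs, against -0.0245 over 44 pairs with different numbers. Since not every pair was above 0.1 and no label ties the numbers to a shared source, they were not taken as pairs; whether DCCO numbers mark something shared was not settled.

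Sign changes fell on core genes with a high dose effect between -0.221 and 0.069, and in DCCO several came without control 2. In JQ, CENPF was 0.000764 with relative log expression factors and 0.000842 with DESeq2. In DCCO the replicate block gave 0.0129 for AURKA, 0.0567 for CDC20, 0.0134 for CENPF, 0.0576 for CCNB1, 0.0276 for CDK4, 0.148 for KIF11 and 0.0504 for MCM2. CCND1 was 0.0467 without control 1 and high dose 1.

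Leave-one-out ranges in JQ were -0.406 to -0.00411 for CDK1, which kept its sign, -0.239 to 0.0926 for AURKA, -0.345 to 0.0428 for CDC20, -0.213 to 0.126 for CENPF, -0.324 to 0.0560 for CCNA2, -0.172 to 0.196 for CCNB1, -0.284 to 0.00350 for CCNE2, -0.272 to 0.0131 for KIF11 and -0.191 to 0.05002 for MCM2. In DCCO they were -0.357 to 0.201 for AURKA, -0.229 to 0.211 for CDC20, -0.332 to 0.128 for CENPF, -0.363 to 0.0539 for CCNA2, -0.133 to 0.199 for CCNB1, -0.145 to 0.0554 for CCND1, -0.240 to 0.113 for CDK1, -0.152 to 0.0115 for CDK4, -0.261 to 0.0381 for CCNE2, -0.230 to 0.238 for KIF11 and -0.160 to 0.00634 for MCM2. The cause was not tested. Depth limits members of few reads, such as CENPV-like in DCCO.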
